A study of Rattus norvegicus with 24 samples.

Results

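Liver RNA of 8 rats kept in constant darkness for 8 weeks was compared with liver RNA of 8 control rats, over the 11616 of 30957 genes that had at least 0.5 FPKM in at least 8 of these 16 livers. The genes were taken by that level alone, with no reference to the group a liver belonged to. FPKM, the unit of the deposited values, are fragment counts made relative to transcript length and library size. The darkness rats were female Sprague-Dawley rats that entered at an age of 6 weeks, were sampled at 14 weeks, were never given light and were gavaged daily with saline. The control rats were of the same strain, sex and age and were gavaged with saline too, but lived with 12 h of light per day. The other 8 rats of the series, DL.reuteri, lived in the same darkness and was gavaged with Lactobacillus reuteri at 100 mg per day in place of saline; it is given below only beside the comparison of darkness with control. All animals were females on normal chow and were fasted overnight for 16 h, with free access to water, before sampling. Each liver was sampled once, and several rats shared a cage while the labels name no cage, so every p below treats rats as independent.

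The liver clock is a loop in which CLOCK or NPAS2 pairs with BMAL1 (Arntl in the deposited names) and switches on Per and Cry genes through E-box sequences, and the PER and CRY proteins then repress that pair. The loop passes its rhythm to output genes such as Dbp and Hlf, whose proteins bind D-box sequences, and ROR proteins add another arm. In a rodent liver, light reaches this loop through the brain's clock, feeding time and glucocorticoids, and the loop in turn times sugar, lipid, bile acid and amino acid metabolism. With 1 sampling per rat, a changed level cannot be told apart from a rhythm that has shifted in time.

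A clock gene and a glucocorticoid-responsive gene, Per2 and Klf15, are shown with their promoters because their levels are described below and because each window holds a motif of this loop. Both windows run from 250 bases before to 50 bases after the RefSeq start in the GRCr8 assembly, 5′ to 3′ on the gene's strand. Capitals mark a D-box (TTATGTAA) in Per2 at chr9:99496944-99497243 on the minus strand, 192 bases before the start, and an E-box (CACGTG) in Klf15 at chr4:124522765-124523064 on the plus strand, 101 bases before the start.
Per2: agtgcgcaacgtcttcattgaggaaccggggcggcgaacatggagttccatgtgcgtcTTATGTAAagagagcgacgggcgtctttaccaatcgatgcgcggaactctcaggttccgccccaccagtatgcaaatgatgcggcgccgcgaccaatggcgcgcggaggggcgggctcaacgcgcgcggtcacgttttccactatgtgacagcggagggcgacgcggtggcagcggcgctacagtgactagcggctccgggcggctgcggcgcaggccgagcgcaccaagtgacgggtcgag
Klf15: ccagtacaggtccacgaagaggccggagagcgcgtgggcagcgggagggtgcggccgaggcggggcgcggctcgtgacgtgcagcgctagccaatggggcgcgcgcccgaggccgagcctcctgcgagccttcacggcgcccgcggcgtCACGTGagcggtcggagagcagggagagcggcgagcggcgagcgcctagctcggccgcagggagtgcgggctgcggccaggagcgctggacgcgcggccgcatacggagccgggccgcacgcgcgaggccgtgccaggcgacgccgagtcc
Searched on both strands, the E-box occurred in 6.42% and the D-box in 0.893% of all 33469 RefSeq promoters of this length, the nuclear receptor motif AGGTCA in 16.2% and the cyclic AMP element TGACGTCA in 1.83%. None of these 4 motifs contains another. Of the 30 genes with the smallest p in either direction, 24 had a promoter entry, and the E-box was in 3 of them (Slc30a3, Cep63 and Klf15), the receptor motif in 2 and the other motifs in 0. Of 23 clock and clock output genes, 17 had an entry, and 2 held an E-box (Tef and Bhlhe40), 1 a D-box (Per2), 2 a receptor motif (Arntl and Usp2) and 0 the cyclic AMP element. A matching string is a description of the window and not a shown binding site.

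The 16 libraries did not split by group on the features that varied most. The first principal component held 37.5% of the variance and followed the share of mitochondrially encoded transcripts (Pearson r = -0.98, Spearman correlation -0.98 over 16 libraries; these transcripts enter both measures). That share was 12.4% in the lowest darkness liver, 42.7% at the median and 59.7% in the highest, against 21.0%, 38.8% and 52.6% in control livers. An exact two-sided permutation test of 8 rats against 8 gave p = 0.855 for it, p = 0.670 for the FPKM sum and p = 0.336 for the number of genes above 0, and all 3 were 0.855 after Benjamini-Hochberg adjustment. How deeply each library was sequenced is unknown from FPKM. Hepatocyte markers were high in every liver, with Alb averaging 38912 FPKM under darkness and 37039 FPKM under control light. Control 8 stood apart by adipocyte genes: its 11 listed adipocyte markers had a mean log2(FPKM + 1) of 4.44, against 2.28 or less in the other control livers and 1.78 to 2.37 in darkness livers, and they summed to 706 FPKM in it, against 300.1 FPKM or less in the other controls.

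**Figure D1:**
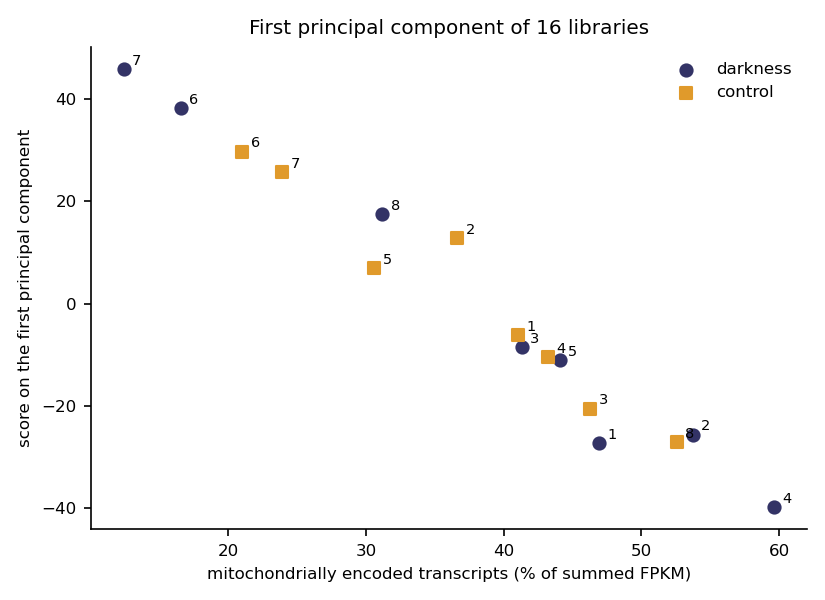
Score of each of the 16 livers on the first principal component (vertical axis, in component units) against the percent of its summed FPKM from mitochondrially encoded transcripts (horizontal axis). Round points are darkness livers, squares are control livers, and numbers are replicate numbers. The points lie near 1 falling line, and both groups spread along it, darkness from 12.4% to 59.7% and control from 21.0% to 52.6%.

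No gene differed between darkness and control at an adjusted p under 0.05 (0% of 11616 genes) by limma on log2(FPKM + 1) with Benjamini-Hochberg adjustment. The smallest adjusted p was 0.243, and a per-gene linear model with Ballgown's library term, after the tool the study used, also called 0 genes, with a smallest adjusted p of 0.157. At an unadjusted p under 0.05, 70 genes were higher in darkness (0.603%) and 424 were lower (3.65%), 494 in all (4.25%). In this fit, that is fewer than the 580.8 genes such a threshold returns on average from groups that do not differ. With the further demand of a log2 ratio of group means beyond 0.6 in size, the pair of thresholds the study used, 35 genes were higher (0.301%) and 151 were lower (1.3%). Without control 8, the counts at the unadjusted threshold were 68 higher and 442 lower. Whether the count lay under or above the average of 580.8 depended on the setting. The lower genes alone were 818 with array weights and 827 with the percent of mitochondrial transcripts as a covariate. Rescaling by median ratios gave 190 higher and 201 lower. The smallest adjusted p was 0.148 with array weights and 0.111 with that covariate, so 0 genes passed there too.

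The tilt to lower values depended on how the libraries were scaled, and 2 of the 4 other scalings left about as many higher as lower genes. Of all genes tested, 69.5% had a lower mean in darkness on the deposited FPKM, with a median log2 difference of -0.07. Lower genes were 85.8% of those at an unadjusted p under 0.05 on the deposited FPKM. They were 75.5% after rescaling by the summed FPKM of non-mitochondrial genes, 63.8% after rescaling to the 75th percentile, 51.4% after rescaling by median ratios (201 lower and 190 higher) and 46.8% with Ballgown's library term (202 lower and 230 higher). The 30 genes with the smallest p, 15 in each direction, kept their direction under all of these and under every other setting in which they were measured. They were picked by their p in these same libraries, so a kept direction was likely from the start and is no independent support. With Ballgown's library term 23 of the 30 stayed at an unadjusted p under 0.05. Because of the tilt, a difference below is best read against the median of -0.07 over all genes.

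**Figure D2:**
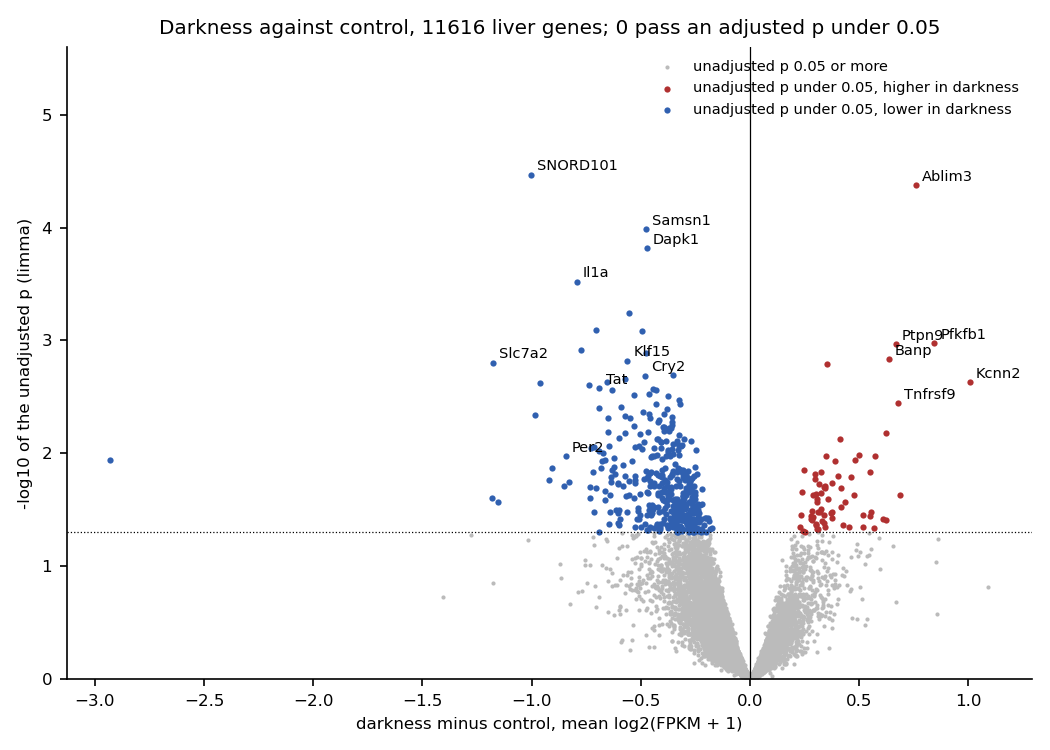
Each point is 1 of 11616 genes, placed by its difference of darkness minus control in mean log2(FPKM + 1) (horizontal axis) and by -log10 of its unadjusted limma p (vertical axis); the dotted line marks an unadjusted p of 0.05. Red points are the 70 genes with a higher mean in darkness and blue points the 424 with a lower mean past that line, and 0 of them pass an adjusted p under 0.05.

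Ablim3, an actin-binding LIM protein, was the gene with the smallest p among those with a higher mean in darkness. Its FPKM were 2.08 in the lowest darkness liver, 2.36 at the median and 3.97 in the highest, against 0.759, 1.06 and 2.01 in control livers. It was the only gene of the 11616 whose 8 darkness values all lay above its 8 control values (0.00861%). The means differed 2.26-fold, and the difference was 0.76 ± 0.14 on the log2(FPKM + 1) scale (SE, unadjusted p = 4.19e-05, limma adjusted p = 0.243). After rescaling to the 75th percentile or by the summed FPKM of non-mitochondrial genes the 2 groups no longer separated fully for any gene higher in darkness.

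Samsn1, an adaptor protein of immune cells, was its counterpart at the other end. It had 0.201 FPKM in the lowest darkness liver, 0.744 at the median and 0.803 in the highest, against 1.09, 1.26 and 1.58 FPKM in control livers. It was the only gene with all 8 darkness values under all 8 control values (0.00861%), at a difference of -0.48 ± 0.10 (SE, unadjusted p = 0.000102, limma adjusted p = 0.396). The count of such genes was 1 to 4 when single libraries were left out, with 4 without control 5 and 4 without control 8.

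SNORD101, a small nucleolar RNA of the C/D box class that guides RNA modification, had the smallest p of all genes. It had 0.71 FPKM in the lowest darkness liver, 1.97 at the median and 2.78 in the highest, against 2.3, 5.32 and 5.92 FPKM in control livers. Only the lowest control liver lay within the darkness range. The difference was -1.002 ± 0.18 (SE, unadjusted p = 3.39e-05, limma adjusted p = 0.243). Transcripts this short lie within host genes as a rule, and their FPKM are sensitive to fragment length, so the row is uncertain as a level of the small RNA.

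Dapk1, a calcium and calmodulin-regulated kinase of cell death, and Il1a, the cytokine interleukin 1 alpha, came next. Dapk1 had 3.36 FPKM in the lowest darkness liver, 4.13 at the median and 5.1 in the highest, against 4.95, 6 and 7.25 FPKM in control livers. 7 of its 8 darkness values lay under all control values, and the difference was -0.47 ± 0.10 (SE, unadjusted p = 0.000151). Il1a had 2.95, 4.96 and 9.69 FPKM at the same 3 points in darkness livers, against 7.1, 9.74 and 12 FPKM in control livers. Again 7 of 8 darkness values lay under all control values, at -0.79 ± 0.18 (SE, unadjusted p = 0.000301). The adjusted p was 0.396 or more for every gene other than Ablim3 and SNORD101.

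**Figure D3:**
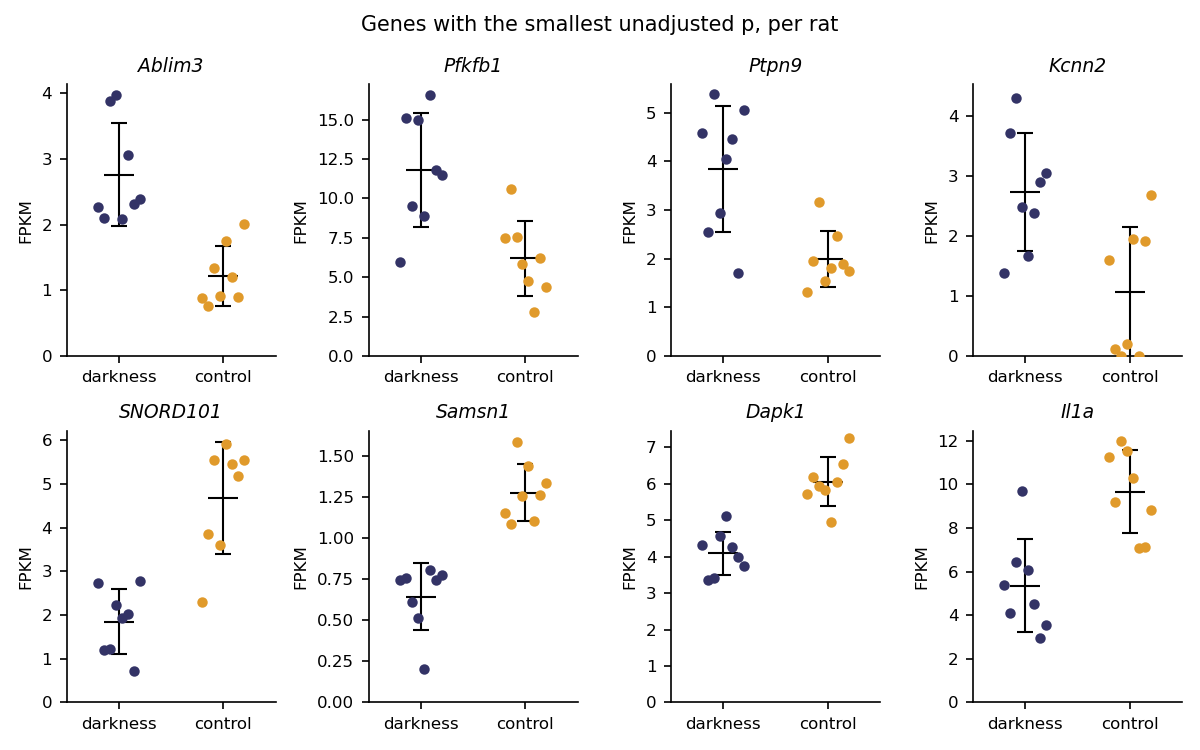
FPKM (vertical axes, from 0) of 8 genes in each rat, darkness on the left and control on the right of each panel; each point is 1 liver, and bars give the mean and SD over 8 rats. Ablim3 and Samsn1 are the only genes of this set whose groups do not overlap, and none of the 8 passes an adjusted p under 0.05.

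Among the other genes with a higher mean in darkness, Pfkfb1, the liver form of the enzyme that makes and breaks fructose 2,6-bisphosphate, had the next smallest p. Its FPKM were 5.99, 11.7 and 16.5 (lowest, median and highest) in darkness livers, against 2.79, 6.03 and 10.6 in control livers, and 5 of 8 darkness livers lay above every control. The difference was 0.84 ± 0.22 (SE, unadjusted p = 0.00105). Ptpn9, a tyrosine phosphatase, had 1.71, 4.25 and 5.38 FPKM in darkness livers, against 1.32, 1.85 and 3.16 FPKM in control livers, a difference of 0.67 ± 0.17 with 5 darkness livers above every control.

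Banp, a nuclear DNA-binding protein, was at 2.72, 3.69 and 5.56 FPKM in darkness livers, against 0.982, 2.25 and 3.29 FPKM in control livers, and 6 darkness livers lay above every control. Kcnn2, a calcium-activated potassium channel, was at 1.38, 2.68 and 4.3 FPKM in darkness livers, against 0, 0.897 and 2.68 FPKM in control livers. The control livers fell into 4 at 1.59 FPKM or more and 4 at 0.202 FPKM or less, of which 2 were listed at 0, while every darkness liver was at 1.38 FPKM or more. The difference of Kcnn2 was 1.01 ± 0.29 (SE, unadjusted p = 0.00234).

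2 genes of protein folding in the endoplasmic reticulum were also on the higher side. Ficd, which modifies the chaperone BiP, had 2.17, 3.78 and 7.57 FPKM in darkness livers, against 0.929, 2.2 and 3.42 FPKM in control livers, a difference of 0.62 ± 0.20 (unadjusted p = 0.00659). Eif2ak3, the sensor kinase PERK, had 3.98, 6.67 and 7.42 FPKM in darkness livers, against 3.98, 4.58 and 7.18 FPKM in control livers, a difference of 0.33 ± 0.13 (unadjusted p = 0.0226). The list of ER stress and amino acid response genes as a whole did not move to 1 side. Of 25 measured, Eif2ak3 alone was at an unadjusted p under 0.05, beside 0.603% of all genes on the higher side. A lower mean in darkness was seen for 12, beside 69.5% of all genes, and the median was 0.0048. Slc30a3 (a zinc transporter), Tmem150c, Tmem106c, Nhej1 (a DNA end-joining factor) and Cep63 (a centrosome protein) filled further places, with differences of 0.35, 0.41, 0.48, 0.39 and 0.25.

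The core clock list had the largest share of lower genes of the lists with at least 10 members: 4 of 13 measured members were lower at an unadjusted p under 0.05, beside 3.65% of all genes, and 0 were higher. The 4 were Cry2, Per2, Rora and Cry1, and 11 of 13 members had a lower mean in darkness, beside 69.5% of all genes, at a median of -0.12. After rescaling by median ratios 3 of the 13 were lower at this threshold, beside 1.73% of all genes. With Ballgown's library term 1 was, beside 1.74%. Rows of Nr1d1 and Nr1d2, which encode the REV-ERB repressors of the loop, were left out because their values were written with fewer digits than the rest of the table.

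Cry2, one of the 2 cryptochrome repressors, had 4.77 FPKM in the lowest darkness liver, 6.16 at the median and 8.59 in the highest, against 7.79, 9.45 and 12.7 FPKM in control livers. 5 darkness livers lay under every control liver and 5 control livers above every darkness liver. The difference was -0.48 ± 0.13 (SE, unadjusted p = 0.00204), and it stayed between -0.55 and -0.40 over all settings tried. Cry1, the other cryptochrome, had 1.64, 3.38 and 5.23 FPKM in darkness livers, against 2.93, 4.51 and 7.78 FPKM in control livers, with wide overlap and a difference of -0.43 ± 0.20 (unadjusted p = 0.0431).

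Per2, the period repressor whose promoter is shown above with its D-box, had 0.865, 1.76 and 4.5 FPKM in darkness livers, against 2.01, 4.43 and 9.08 FPKM in control livers. 4 darkness livers lay under every control liver, and the difference was -0.84 ± 0.30 (SE, unadjusted p = 0.0106). Per1 had 2.68, 5.41 and 12.1 FPKM in darkness livers, against 2.92, 14.1 and 28.2 FPKM in control livers, and did not reach the unadjusted threshold (-0.72 ± 0.37, unadjusted p = 0.0653). Rora, a nuclear receptor that drives Arntl, had 0.194, 0.736 and 1.44 FPKM in darkness livers, against 0.788, 1.06 and 1.76 FPKM in control livers (-0.36 ± 0.13, unadjusted p = 0.0154).

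Arntl, of the activating pair of the loop, showed no such difference. Arntl had 8.38, 10.5 and 11.8 FPKM in darkness livers, against 8.72, 10.4 and 13.8 FPKM in control livers (-0.09 ± 0.11, unadjusted p = 0.454). Npas2 differed by 0.06 ± 0.22 and Clock by 0.07 ± 0.31, and the sign of both turned under some settings, as did that of Per3 (-0.09 ± 0.17). With these errors a change of the size seen for Cry2 in Clock would not have been detectable.

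All 10 measured clock output genes had a lower mean in darkness, beside 69.5% of all genes, at a median of -0.28, but only Ccrn4l was at an unadjusted p under 0.05. Ccrn4l, now called Noct and encoding nocturnin, had 0.969, 2.91 and 13.3 FPKM in darkness livers, against 2.14, 10.5 and 29.1 FPKM in control livers (-1.18 ± 0.48, unadjusted p = 0.025). Its values spread more than 10-fold within each group, and the groups overlapped. Hlf, a D-box-binding factor, had 1.39, 2.09 and 3.93 FPKM in darkness livers, against 1.6, 3.63 and 5 FPKM in control livers (-0.35 ± 0.20, unadjusted p = 0.0947). Dbp, the output gene best known for a strong rhythm, was low in both groups, with 0.775, 0.965 and 1.16 FPKM in darkness livers and 0.677, 0.913 and 1.76 FPKM in control livers, and its difference of -0.02 ± 0.10 turned sign under some settings.

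**Figure D4:**
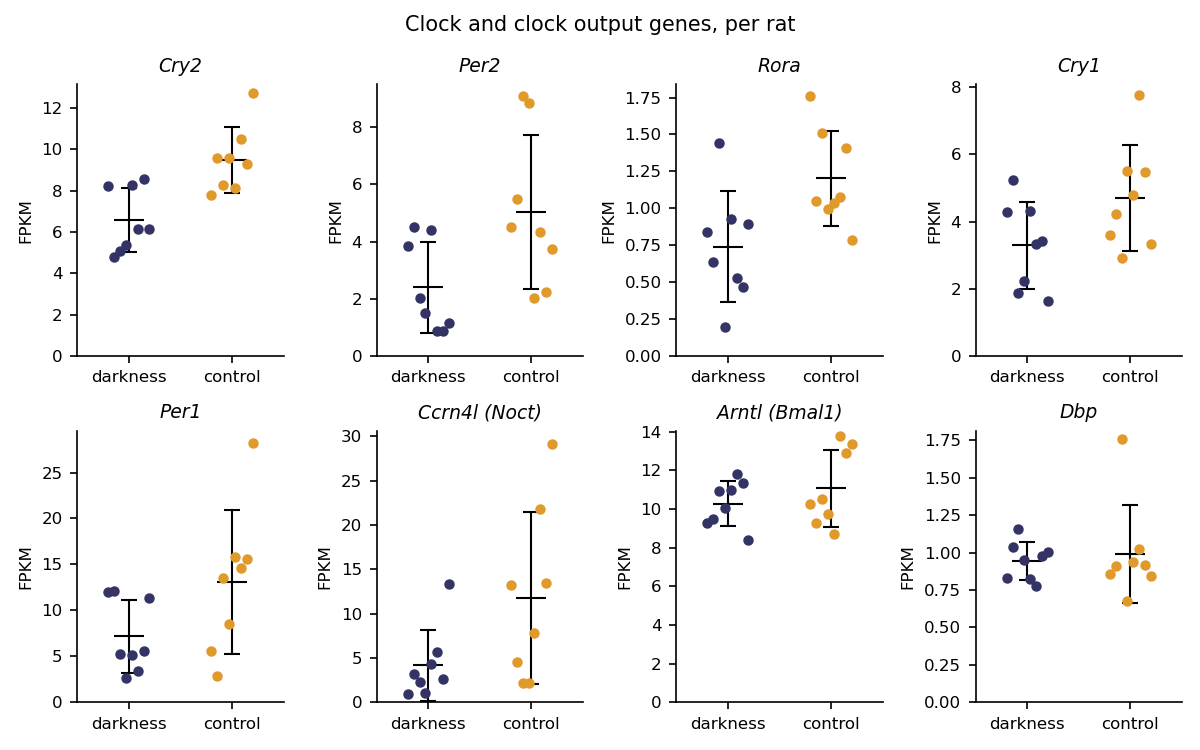
FPKM (vertical axes, from 0) of 6 clock genes and of the clock output genes Ccrn4l and Dbp in each rat, darkness on the left and control on the right; bars give the mean and SD over 8 rats. Cry2 and Per2 sit lower in darkness with some overlap, Per1 and Ccrn4l spread widely in both groups, and Arntl and Dbp lie at the same level in both.

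Of 19 measured glucocorticoid response genes, 3 were lower at an unadjusted p under 0.05 (Klf15, Tat and Sgk1), beside 3.65% of all genes. On the higher side were 0, beside 0.603%, and the median was -0.17. The count of lower genes was 3 after rescaling by median ratios, beside 1.73% of all genes. With Ballgown's library term 2 were lower, beside 1.74%, and 1 was higher, beside 1.98%. Klf15, a transcription factor that drives amino acid breakdown in the fasted liver and whose promoter is shown above with its E-box, had 18.8, 26.8 and 45 FPKM in darkness livers, against 33.2, 40.7 and 47.3 FPKM in control livers. 7 of 8 darkness livers lay under every control liver, and the difference was -0.56 ± 0.15 (SE, unadjusted p = 0.00151). Tat, tyrosine aminotransferase, had 338, 548 and 831 FPKM in darkness livers, against 696, 861 and 1191 FPKM in control livers (-0.69 ± 0.20, unadjusted p = 0.00265), and 5 darkness livers lay under every control. Sgk1, a kinase induced by glucocorticoids, had a difference of -0.44 ± 0.16 (unadjusted p = 0.0106). Other classical targets were not past this threshold: Tsc22d3 differed by -0.35 ± 0.28 with overlapping groups.

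Amino acid breakdown had 3 of 26 measured members lower at an unadjusted p under 0.05, beside 3.65% of all genes, and 0 higher, with a median of -0.15. They were Tat, Hal, the histidine ammonia-lyase, and Cbs, which condenses homocysteine with serine. Hal had 169, 224 and 261 FPKM in darkness livers, against 195, 271 and 339 FPKM in control livers (-0.31 ± 0.13, unadjusted p = 0.0238). Cbs had 54.3, 74.3 and 95.5 FPKM in darkness livers, against 79, 86.7 and 99.4 FPKM in control livers (-0.27 ± 0.11, unadjusted p = 0.028). After rescaling by median ratios 1 of the 26 was lower at this threshold, beside 1.73% of all genes. Outside this list, Slc7a2, a carrier of arginine and other cationic amino acids, had 3.69, 11.3 and 15.7 FPKM in darkness livers, against 7.42, 24 and 43.5 FPKM in control livers. 6 of 8 control livers lay above every darkness liver, and the difference was -1.18 ± 0.32 (SE, unadjusted p = 0.00157).

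In glycolysis and gluconeogenesis the direction was the other one: 2 of 28 measured members were higher at an unadjusted p under 0.05, beside 0.603% of all genes, and 0 were lower. They were Pfkfb1, given above, and Slc37a4, which carries glucose 6-phosphate into the endoplasmic reticulum. Slc37a4 had 32.6, 45.1 and 73.8 FPKM in darkness livers, against 26.2, 35.7 and 44.4 FPKM in control livers (0.34 ± 0.16, unadjusted p = 0.0454). The median of the list was 0.02. Mpc1, part of the mitochondrial pyruvate carrier, was at 0.27 ± 0.13 (unadjusted p = 0.0516).

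Insulin signalling and FoxO genes had 24 of 27 measured members with a lower mean in darkness, beside 69.5% of all genes, at a median of -0.15, and 3 lower at an unadjusted p under 0.05, beside 3.65%. Irs1, an insulin receptor substrate, had 0.932, 2.39 and 2.91 FPKM in darkness livers, against 2.03, 3.36 and 4.61 FPKM in control livers (-0.50 ± 0.17, unadjusted p = 0.0091). Foxo3, a transcription factor held out of the nucleus by insulin signalling, and Rptor, a subunit of the growth kinase complex mTORC1, differed by -0.31 ± 0.13 and -0.23 ± 0.11 (unadjusted p = 0.0348 and 0.0385). The list had 1 lower member after rescaling by median ratios, beside 1.73% of all genes. With Ballgown's library term it had 2 lower, beside 1.74%, and 1 higher, beside 1.98%, at a median of -0.017.

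Few lipid genes were past even the unadjusted threshold, and which lists had any moved with the scaling. On the deposited FPKM, fatty acid synthesis (17 measured), cholesterol synthesis (21), fatty acid oxidation and ketone production (23), triglyceride assembly (13), lipases and lipid droplets (13) and AMPK genes (10) each had 0 such members in either direction, as had cholesterol uptake, efflux and lipoproteins (23). After rescaling by median ratios, to the 75th percentile or by the summed FPKM of non-mitochondrial genes, fatty acid synthesis had 1 higher member and cholesterol uptake, efflux and lipoproteins had 2, and by the last of these scalings that list and triglyceride assembly had 1 lower member each. Over all genes 1.64%, 1.22% and 0.792% were higher by these scalings in turn, and 2.44% were lower by the last. Srebf1 and Insig2 belong to this pathway and were left out for their shorter digits. The closest members were Acss2, which makes acetyl-CoA from acetate, at 0.33 ± 0.17 (unadjusted p = 0.0603), Lpin2, a phosphatidate phosphatase, at -0.72 ± 0.35 (unadjusted p = 0.0549) and Gpam, the first enzyme of glycerolipid synthesis, at -0.39 ± 0.20 (unadjusted p = 0.063). Ppara, the receptor that drives fat burning on fasting, had 0.327, 1.65 and 5.44 FPKM in darkness livers, against 2.05, 2.85 and 5.25 FPKM in control livers (-0.45 ± 0.25, unadjusted p = 0.0871), and its difference was -0.00058 with Ballgown's library term. The median of fatty acid synthesis was 0.09 and that of fatty acid oxidation -0.07, the same as over all genes.

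Of 20 measured bile acid genes, 1 had an unadjusted p under 0.05, on the higher side, beside 0.603% of all genes. It was Cyp8b1, the sterol hydroxylase that sets the share of cholic acid, with 58.8, 95.7 and 226 FPKM in darkness livers, against 27, 69.7 and 105 FPKM in control livers (0.62 ± 0.28, unadjusted p = 0.0393); 4 darkness livers lay above every control. Of 28 cytochrome P450 genes, 1 was lower, a share near the 3.65% of all genes, and 0 higher. It was Cyp26a1, which breaks down retinoic acid, with 3.15, 4.18 and 9.47 FPKM in darkness livers, against 4.99, 7.46 and 12.4 FPKM in control livers. 6 darkness livers lay under every control, and the difference was -0.59 ± 0.18 (SE, unadjusted p = 0.00392).

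**Figure D5:**
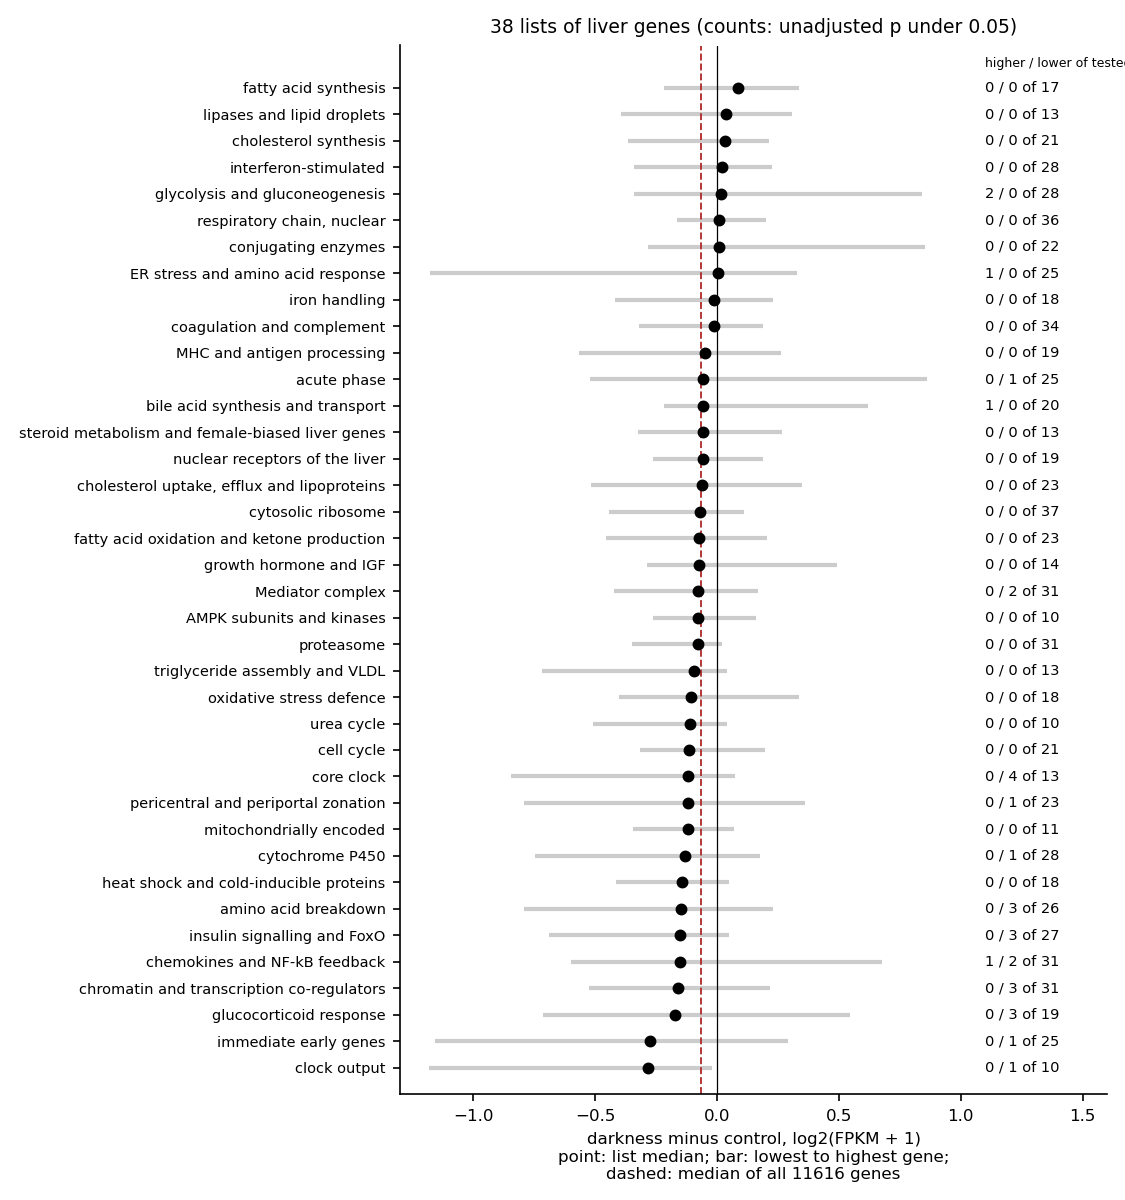
Median difference of darkness minus control in mean log2(FPKM + 1) for each of 38 gene lists (points), with the range over the measured genes of the list (grey bars); the dashed line is the median of all genes, -0.07, and the numbers at the right count genes at an unadjusted p under 0.05. The core clock has the most lower genes, 4 of 13, and 23 lists have none in either direction.

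Immune genes pointed in both directions. Tnfrsf9, the costimulatory receptor 4-1BB, had 11.3, 14 and 17.5 FPKM in darkness livers, against 4.58, 8.1 and 14.6 FPKM in control livers (0.68 ± 0.20, unadjusted p = 0.0036), with 5 control livers under every darkness liver. Vcam1, an adhesion molecule for leukocytes, had 0.766, 1.08 and 1.59 FPKM in darkness livers, against 1.31, 1.7 and 1.91 FPKM in control livers (-0.33 ± 0.10, unadjusted p = 0.00337). Tnfaip3, the NF-kB inhibitor A20, differed by -0.60 ± 0.28 (unadjusted p = 0.0436). These 3 were the members at an unadjusted p under 0.05 of 31 measured chemokine and NF-kB feedback genes. Of the 31, 1 was thus higher, beside 0.603% of all genes, and 2 were lower, beside 3.65%. A lower mean in darkness was seen for 25 of the 31, beside 69.5% of all genes. Interferon-stimulated genes (28 measured) and MHC and antigen processing genes (19) had 0 such members in either direction.

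Most lists of markers for other cells had a median below 0, as had all genes tested (-0.07), and in bulk liver fewer cells of a type cannot be told apart from less RNA per cell. Measured adipocyte (8), B and plasma cell (3) and pancreas (2) markers had medians of -0.48, -0.23 and -0.13, with 0 at an unadjusted p under 0.05. The adipocyte median includes control 8, which stood apart by these genes. Measured markers of neutrophils and monocytes (3), cholangiocytes (4) and muscle and mesothelium (1) had medians of 0.18, -0.0096 and 0.16, with 0 at an unadjusted p under 0.05. All 13 measured Kupffer cell and macrophage markers had a lower mean in darkness, beside 69.5% of all genes, at a median of -0.23. Of these, 0 were at an unadjusted p under 0.05, and Csf1r was at -0.36 ± 0.24. The median of the list was -0.15 after rescaling by median ratios and -0.010 with Ballgown's library term, under which Csf1r turned direction. The 14 listed Kupffer cell markers summed to 303 FPKM in the lowest darkness liver, 448 at the median and 850.3 in the highest, against 382, 565 and 900.4 FPKM in control livers. Sinusoidal endothelial markers were lower in mean for 11 of 12, beside 69.5% of all genes, and lower at the unadjusted threshold for 2, beside 3.65%. They were Bmp2, the endothelial signal for iron sensing in hepatocytes (-0.43 ± 0.14, unadjusted p = 0.00742), and Fcgr2b, an Fc receptor (-0.33 ± 0.14, unadjusted p = 0.0299). Their summed level was 57.3 to 103 FPKM in darkness livers and 73.4 to 105 FPKM in control livers.

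T and NK cell markers had 3 of 12 measured members lower at an unadjusted p under 0.05, beside 3.65% of all genes. Of the 12, 9 had a lower mean in darkness, beside 69.5% of all genes, and 3 had a higher one, at a median of -0.20. Nkg7, a protein of cytotoxic granules, was at -0.42 ± 0.17 (unadjusted p = 0.0226), Cd2 at -0.31 ± 0.13 (unadjusted p = 0.0304) and Cd8a at -0.34 ± 0.15 (unadjusted p = 0.0343). The 15 T and NK cell markers in the table summed to 21.1 to 38.2 FPKM in darkness livers and 27.2 to 40.5 FPKM in control livers. All 11 measured stellate cell and matrix markers had a lower mean in darkness, beside 69.5% of all genes, with 0 at the unadjusted threshold and a median of -0.20. The median was -0.13 after rescaling by median ratios and -0.019 with Ballgown's library term. After rescaling by median ratios 1 endothelial and 1 T and NK cell marker were lower at the threshold, beside 1.73% of all genes. With Ballgown's library term 0 endothelial markers, at a median of -0.041 for that list, and 1 T and NK cell marker were lower, beside 1.74%. The part of these cells in the lower levels of Samsn1, Il1a, Vcam1 and Rhoj, which are expressed in immune or endothelial cells, was not tested.

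Rhoj, a gene of endothelial cells, had 0.549, 0.904 and 1.12 FPKM in darkness livers, against 0.961, 1.56 and 2.79 FPKM in control livers (-0.48 ± 0.13, unadjusted p = 0.00129). Adamts1, a secreted metalloprotease, had 2.5, 3.67 and 6.17 FPKM in darkness livers, against 4.64, 6.47 and 11 FPKM in control livers (-0.66 ± 0.19, unadjusted p = 0.00232), and 5 darkness livers lay under every control. Phldb2, which anchors microtubules at the cell cortex, had 0.168, 1.05 and 1.73 FPKM in darkness livers, against 1.42, 2.03 and 2.8 FPKM in control livers (-0.57 ± 0.16, unadjusted p = 0.00218). Shroom3, which organises actin at the cell apex, and Zfp385b, a zinc finger protein, differed by -0.35 ± 0.10 and -0.49 ± 0.12 (unadjusted p = 0.00202 and 0.000832).

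Ubd was singled out after its values were seen, for the largest difference of any gene. It encodes a ubiquitin-like protein induced by interferon gamma and TNF. Its level in darkness livers was 0 in 2 rats, 0.0373 and 0.0505 FPKM in 2 others and 48.2, 62.9, 87.5 and 116 FPKM in the remaining 4, against 39.5 FPKM in the lowest control liver, 65.9 at the median and 115 in the highest. 4 darkness livers thus lay far under every control, 3 within the control range and 1 just above it, at a difference of -2.93 ± 1.04 (SE, unadjusted p = 0.0115). In DL.reuteri livers it was 8.79, 29.3 and 53.5 FPKM at the lowest, the median and the highest.

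Of 31 measured chromatin and transcription co-regulators, 27 had a lower mean in darkness, beside 69.5% of all genes, and 3 of those were at an unadjusted p under 0.05, beside 3.65%. Chd1, a chromatin remodeller, had 0.947, 1.56 and 1.79 FPKM in darkness livers, against 1.3, 2.23 and 3.61 FPKM in control livers (-0.42 ± 0.13, unadjusted p = 0.00526). Kdm6b, a histone demethylase, and Smarca2, an ATPase of the SWI/SNF complex, differed by -0.53 ± 0.20 and -0.26 ± 0.12 (unadjusted p = 0.0181 and 0.0428). Of 31 Mediator genes, 2 were lower, beside 3.65% of all genes, and 0 higher. Med13 had 1.08, 1.47 and 2.23 FPKM in darkness livers, against 1.46, 2.59 and 3.55 FPKM in control livers (-0.42 ± 0.14, unadjusted p = 0.00754), and Med19 was at -0.27 ± 0.13 (unadjusted p = 0.0463). After rescaling by median ratios 1 gene of each list was lower at this threshold, beside 1.73% of all genes, and 1 co-regulator was higher, beside 1.64%. With Ballgown's library term 0 were in either direction.

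Among 25 immediate early genes, 21 had a lower mean in darkness, beside 69.5% of all genes, at a median of -0.27. Of the 25, 1 was lower at an unadjusted p under 0.05, a share near the 3.65% of all genes. It was Nr4a1, an orphan nuclear receptor induced within minutes of a stimulus, with 1.4, 4.45 and 22.7 FPKM in darkness livers, against 4.88, 12.7 and 30.5 FPKM in control livers (-1.16 ± 0.48, unadjusted p = 0.0269). With Ballgown's library term 7 of the 25 were lower, beside 1.74% of all genes. Of 25 acute phase genes, 1 was lower, a share near the 3.65% of all genes. It was the transcription factor Cebpd (-0.37 ± 0.17, unadjusted p = 0.0451). The acute phase list had 0 lower and 1 higher after rescaling by median ratios, to the 75th percentile or by the summed FPKM of non-mitochondrial genes. Over all genes 1.64%, 1.22% and 0.792% were higher by these scalings in turn. Of 7 erythroid markers, at a median of -0.35, 1 was lower, beside 3.65% of all genes. It was the red cell anion exchanger Slc4a1 (-0.36 ± 0.15, unadjusted p = 0.0228).

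Over the 38 functional lists, 799 distinct genes were measured, of which 5 were higher (0.626%) and 23 lower (2.88%) at an unadjusted p under 0.05, beside 0.603% and 3.65% of all genes. The lists thus held no larger share of lower genes than the liver transcriptome at large. 23 lists had 0 such members in either direction. They included the cytosolic ribosome (37 measured), the nuclear respiratory chain (36), coagulation and complement (34), the proteasome (31), the urea cycle (10) and the 11 mitochondrially encoded genes. The median was below 0 for 30 of the 38 lists on the deposited FPKM and for 19 after rescaling by median ratios.

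In DL.reuteri livers, which share the darkness but not the saline, the same genes had the following levels. The comparisons of DL.reuteri and of darkness with control use the same control livers. DL.reuteri minus darkness uses the same darkness livers by whose values these genes were named. That choice alone makes a move back toward control likely. Of the 15 genes of smallest p on each side, DL.reuteri was below darkness for 11 of the higher ones and above it for all 15 lower ones. DL.reuteri also lay on the same side of control as darkness for 12 of the higher and 14 of the lower ones. The shared control livers make that likely too. Pfkfb1 had 2.83 FPKM in the lowest DL.reuteri liver, 5.22 at the median and 12.4 in the highest, beside the darkness median of 11.7 and the control median of 6.03. Ablim3 had 0.942, 2.15 and 4.09 FPKM in DL.reuteri livers, beside medians of 2.36 in darkness and 1.06 in control. The DL.reuteri median of Ablim3 thus lay near that of darkness, and that of Pfkfb1 under both.

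Of the genes described above, 3 differed between DL.reuteri and another group at an adjusted p under 0.05. The darkness and control values by which these 3 were named also enter their differences given here. Ptpn9 had 3.33, 5.1 and 7.5 FPKM in DL.reuteri livers, which all lay above the highest control value of 3.16, and differed from control by 1.07 (limma adjusted p = 0.0309). Tnfrsf9 had 4.3, 6.12 and 11 FPKM in DL.reuteri livers, all under the lowest darkness value of 11.3, at DL.reuteri minus darkness of -1.01 (limma adjusted p = 0.041). Phldb2 had 1.57, 2.57 and 3.49 FPKM in DL.reuteri livers, beside a darkness median of 1.05, at DL.reuteri minus darkness of 0.82 (limma adjusted p = 0.041). Cry2 had 4.59, 6.8 and 8.7 FPKM in DL.reuteri livers, beside medians of 6.16 in darkness and 9.45 in control. Over all genes, 17 differed between DL.reuteri and control and 10 between DL.reuteri and darkness at an adjusted p under 0.05 by limma. DL.reuteri 3 stood apart with 85.0% mitochondrially encoded transcripts, and without it, a choice made after seeing the data, these counts were 246 and 1186. Ptpn9 then differed between DL.reuteri and control by 1.14 (limma adjusted p = 0.0116), and DL.reuteri minus darkness was -0.97 for Tnfrsf9 (limma adjusted p = 0.0079) and 0.88 for Phldb2 (limma adjusted p = 0.00597).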

How the data were processed

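Liver RNA was sequenced from 24 rats, 8 per group, and 16 libraries were compared. The authors trimmed reads with Seqtk, mapped them to Rnor 6.0 with HISAT2 2.0.4 and deposited FPKM per gene from StringTie, with no further scaling between libraries stated. The FPKM table had 30958 rows; a second Galr1 row at 0 was dropped, 27 rows had names turned into dates, and 9 rows written with fewer digits were left out. Groups were compared on log2(FPKM + 1) by limma 3.58.1 (R 4.3.3), using a variance trend and no covariate; a filter of 0.5 FPKM in 8 libraries was used. Library measures and figures used Python 3.11.15, scipy 1.17.1 and matplotlib 3.10.9. The pipeline was tested on simulated data. The members, lists and tests were chosen with earlier results of these data known. Genes named were drawn from the 15 of smallest p per direction (at least 1 FPKM in the higher group) and genes whose groups did not overlap. They were also drawn from up to 4 members of each list by p, abundant markers, and the 5 genes most deviant in a library that stood apart. Not every gene of these sets is described, and exceptions are stated. Alternatives were other pseudocounts, filters and scalings, all 3 groups in 1 fit, Ballgown's library term, array weights, the replicate block, an adipocyte covariate, each library left out and, added after seeing the data, the percent of mitochondrial transcripts as a covariate and the fit without DL.reuteri 3. Promoters are RefSeq, GRCr8.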

Additional observations from a re-analysis of the deposited data

Results flagged for a closer look

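Single rats stood apart from the others of their group in 7 of 90 groups of 8 values examined, by the gap to the next rat over the range of the group, and chance alone gives about 1 in 20. Slc30a3 was lowest in darkness 3, at 0.736 FPKM, within a group otherwise near its median of 1.21. Samsn1 was lowest in darkness 5, at 0.201 FPKM, so the low end of the darkness range given for it is that 1 rat. Rhoj was lowest in darkness 7, at 0.549 FPKM. The adipocyte marker score was highest in control 8, at 4.44. The 5 genes in which control 8 deviated most from the median of the other 15 livers, relative to their spread, were SNORA26, Gsn, Adipoq, Sncg and S100b. SNORA26 had 4.23 FPKM in control 8 against a median of 0 elsewhere, but another liver reached 4.08 FPKM. Adipoq, the fat hormone adiponectin, had 20.8 FPKM in control 8 against a median of 0.636 and a highest value of 1.17 elsewhere. The muscle and mesothelium marker score was highest in control 5, at 1.05. The pancreas marker score was lowest in darkness 7, at 0.514, and lowest in control 6, at 0.475.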

How the results depend on the processing

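0 genes passed an adjusted p under 0.05 in either direction under every setting run; the smallest adjusted p was 0.0549 without control 1 and 0.059 with the rows of fewer digits kept. Genes at an unadjusted p under 0.05 numbered 142 higher and 250 lower after rescaling to the 75th percentile, 190 and 201 by median ratios, 230 and 202 with Ballgown's library term, 137 and 818 with array weights, and 141 and 827 with the percent of mitochondrial transcripts as a covariate; with no filter 136 were higher, and with all 3 groups in 1 fit 260 were lower. With the log2 ratio demand too, 20 were higher at a filter of 1 FPKM, 95 higher and 302 lower with no filter, 57 and 94 by median ratios, and 62 lower with Ballgown's library term. Genes with every darkness value above every control value numbered 0 after rescaling to the 75th percentile or to the sum outside the mitochondrial genome, and those with every value below numbered 2 with no filter, at the 75th percentile, by median ratios and with the short rows kept, and 3 for the sum outside the mitochondrial genome. Leaving out 1 library gave 53 to 97 higher and 339 to 570 lower, 32 to 48 and 133 to 242 with the ratio demand (242 without darkness 3), and 1 to 2 and 1 to 4 without overlap. The replicate numbers did not pair the rats (correlations of same-numbered rats from -0.19 to 0.61, own number best for 2 of 8), and with the replicate block the smallest adjusted p was 0.264. Directions turned for Dbp (0.0093 at the 75th percentile, 0.024 by median ratios, 0.049 with Ballgown's term, -0.054 to 0.048 with 1 library left out), Per3 (0.082 with Ballgown's term, -0.14 to 0.067 with 1 library left out), Csf1r (0.099 with Ballgown's term), Clock (-0.23 with Ballgown's term, -0.15 with array weights, -0.057 with the adipocyte covariate, -0.073 to 0.24 with 1 library left out) and Npas2 (-0.032 to 0.19 with 1 library left out); the cause was not tested. FPKM give no depth, and the precision is that of 8 rats a group.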

Other observations

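Genes of ribosome making in the nucleolus were looked at after their values were seen, by symbol family and with no test. Of 33 measured Nop, Nol, Rrp, Utp and Noc genes, 27 had a lower mean in darkness (median -0.11), 4 were lower at an unadjusted p under 0.05 (Nop14, Nop56, Rrp15 and Nol10) and 0 were higher; after rescaling by median ratios 0 were in either direction. Of 85 measured SNORA rows, which guide pseudouridine formation, 66 had a lower mean (median -0.16), 13 were lower and 2 higher at this threshold, against 11 lower and 2 higher after rescaling by median ratios and 3 and 0 with Ballgown's library term. Of 97 measured SNORD rows, 77 had a lower mean (median -0.20), 8 were lower and 3 higher, against 3 and 3 after rescaling by median ratios and 2 and 1 with Ballgown's library term. Of 47 Ddx and Dhx RNA helicases, 35 had a lower mean, 3 were lower and 0 higher, against 1 lower after rescaling by median ratios and 0 with Ballgown's library term. Over all genes 69.5% had a lower mean, and 3.65% were lower and 0.603% higher at this threshold. After rescaling by median ratios 1.73% were lower and 1.64% higher. With Ballgown's library term 1.74% were lower and 1.98% higher.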
